A study of Mus musculus with 6 samples.

Results

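The genes described here are the mouse genes whose symbol is Zfp and a number, most of which encode zinc finger proteins. They were selected on array signal: of 336 such genes with a probe set naming that gene alone, 265 read log2 4 or more on at least 3 of the 6 arrays, through the probe set with the highest mean. Among all 18193 genes 10531 met the same level, so it was met by 78.9% of the Zfp genes and by 57.9% of all genes. The arrays compare GFP positive with GFP negative mouse neural stem cells, which carry a reporter for Spot14, the product of Thrsp, that makes green fluorescent protein (GFP). Each group has 3 arrays, which the labels call biological replicates; age, strain and the way the cells were separated are not given in the sources used here. Signals are the authors' log2 values from Affymetrix mouse arrays, a difference is GFP positive minus GFP negative on that scale, and a gene was called higher or lower at a limma p, adjusted by Benjamini-Hochberg over all 10531 genes, under 0.05.

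Zinc finger proteins fold short stretches around a zinc ion, and strings of C2H2 fingers read DNA sequence. Many proteins of the Zfp series also carry a KRAB domain, which binds the corepressor Trim28. Trim28 in turn brings the histone methyltransferase Setdb1 and heterochromatin proteins to the bound site, and this silencing is best known at retroelements and imprinted genes. The symbol is a name and not a family by function: Zfp36, Zfp36l1 and Zfp36l2 bind messenger RNA and promote its decay, Zfp598 is a ubiquitin ligase acting at collided ribosomes, and Zfp622 is a ribosome assembly factor. The description as transcription factors therefore does not hold for every member, and 2 members, Zfp133-ps and Zfp862-ps, are not listed as protein coding in RefSeq.

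Few of the Zfp genes differed between the groups. Of the 265 members, 4 rose in GFP positive cells (Zfp563, Zfp235, Zfp438 and Zfp119a, with differences of 0.93 to 1.06) and 0 fell. That is 1.51% of the members, against 4.46% of all genes tested. In the higher direction the background was 2.35%, and in the lower direction, where limma called 0 members, it was 2.11%. At an unadjusted p under 0.05 limma counted 23 members (8.68%, against 9.92% of all genes) as higher and 10 as lower (3.77%, against 8.28%). Without any 1 of 5 arrays in turn none of the 4 passed, and all of them passed without GFP negative replicate 3. A block for the replicate number and a covariate for 3′ over 5′ signal each ended all 4 calls, trend and robust settings left Zfp235 alone, and no level rule, a common array median or leaving out probe sets of shared suffix each left Zfp235 and Zfp563. The 2 groups are bulk samples, in which fewer cells of a type and less RNA per cell cannot be told apart.

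The 4 members that rose are shown with their promoters, where the RefSeq table of assembly GRCm38.p6 holds one that can be shown, since these are the genes the test called. Each stretch has 250 bases before and 50 after the annotated start, 5′ to 3′ on the gene's strand, and capitals mark CCAAT, read on either strand. The promoter of Zfp438 is not shown.
Zfp563, chr17:33089117-33089416, plus strand: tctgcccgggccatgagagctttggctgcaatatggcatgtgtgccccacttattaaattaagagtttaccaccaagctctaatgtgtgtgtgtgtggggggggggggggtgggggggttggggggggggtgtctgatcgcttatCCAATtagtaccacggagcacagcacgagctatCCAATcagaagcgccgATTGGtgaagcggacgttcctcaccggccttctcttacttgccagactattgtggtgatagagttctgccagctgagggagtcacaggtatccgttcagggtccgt
Zfp235, chr7:24132122-24132421, plus strand: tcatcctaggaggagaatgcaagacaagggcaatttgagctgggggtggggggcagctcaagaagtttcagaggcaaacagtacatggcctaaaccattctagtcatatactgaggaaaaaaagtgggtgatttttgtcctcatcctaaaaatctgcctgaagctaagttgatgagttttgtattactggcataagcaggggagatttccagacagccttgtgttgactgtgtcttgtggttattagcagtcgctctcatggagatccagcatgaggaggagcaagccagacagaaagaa
Zfp119a, chr17:55878904-55879203, minus strand: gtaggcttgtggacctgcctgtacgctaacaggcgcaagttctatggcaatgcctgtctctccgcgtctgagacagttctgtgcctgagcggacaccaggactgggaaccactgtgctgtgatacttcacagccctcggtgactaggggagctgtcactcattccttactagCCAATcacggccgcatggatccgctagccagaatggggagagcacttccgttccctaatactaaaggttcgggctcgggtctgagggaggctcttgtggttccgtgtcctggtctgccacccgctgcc
The Zfp563 stretch holds CCAAT at 3 places and the Zfp119a stretch at 1, while the Zfp235 stretch holds neither CCAAT nor any other motif searched. Counts of CG pairs were 11, 1 and 14 in the stretches of Zfp563, Zfp235 and Zfp119a. These letters describe the windows and say nothing about which factor binds there.

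Zfp563 measured 7.14, 7.21 and 7.32 on the GFP positive arrays, against 6.12, 6.27 and 6.42 on the GFP negative arrays. The 2 groups lay well apart and each was tight, with means of 7.22 ± 0.09 and 6.27 ± 0.15 (SD, n = 3 each). The difference was 0.95 (SE 0.17, 95% interval 0.55 to 1.36), or 1.94-fold, with a limma adjusted p of 0.0304.

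Zfp235 was the brightest of the 4, at 9.15, 8.90 and 9.15 in GFP positive and 8.14, 7.91 and 8.23 in GFP negative cells. No array of one group reached the other group. It was 1.96-fold higher (0.97, SE 0.18, 95% interval 0.55 to 1.40, limma adjusted p = 0.0311). A further Zfp235 probe set lay near background, at means of 3.18 and 3.14 in GFP positive and GFP negative cells, and says nothing on the direction.

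Zfp438 read 6.97, 7.38 and 7.17 in GFP positive cells, against 6.44, 6.26 and 6.03 in GFP negative cells. Here too the groups were separate, by the gap between 6.97 and 6.44. The difference was 0.93 (SE 0.20, 95% interval 0.46 to 1.39), with a limma adjusted p of 0.0472, just under the threshold.

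Zfp119a was the dimmest, at 4.73, 5.47 and 5.12 in GFP positive cells, against 4.19, 4.06 and 3.90 in GFP negative cells, where it lay near background. It was 2.08-fold higher (1.06, SE 0.23, 95% interval 0.52 to 1.60, limma adjusted p = 0.0485), and at that level the fold depends on the authors' background correction. Zfp119b, its near namesake, fell just outside the level rule, at 3.63, 4.08 and 3.74 in GFP positive and 3.69, 3.67 and 3.58 in GFP negative cells.

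An exact permutation test of each of these 4 genes gave p = 0.1 (2-sided), the smallest that 3 arrays against 3 allow. With 1 array left out in turn, the limma adjusted p ran from 0.0127 to 0.151 for Zfp563, 0.016 to 0.155 for Zfp235, 0.0366 to 0.225 for Zfp438 and 0.0449 to 0.198 for Zfp119a. The differences themselves moved little in these fits, between 0.82 and 1.25.

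**Figure D1:**
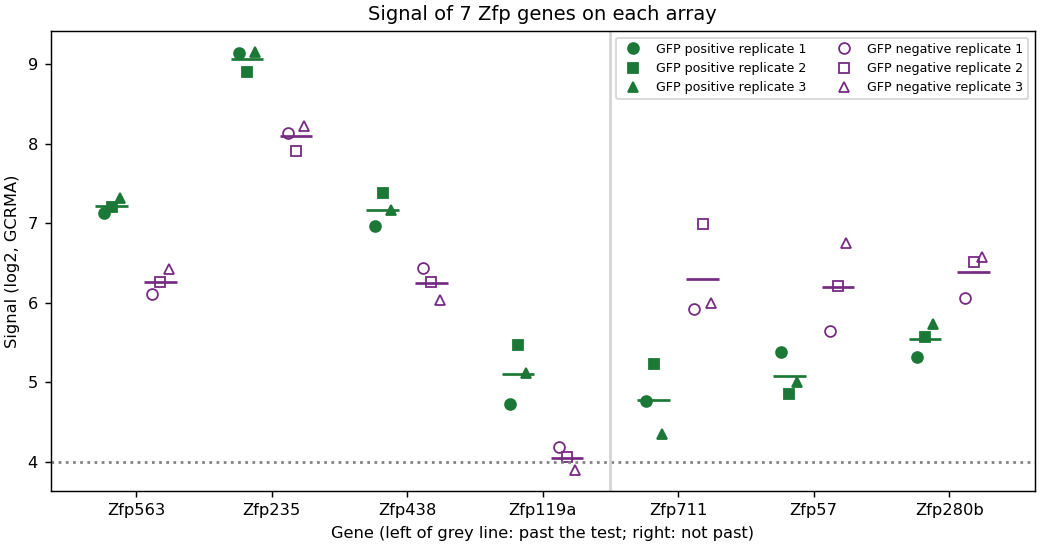
Signal (log2) of 7 Zfp genes on each array, with GFP positive arrays filled and GFP negative arrays open to their right, symbols for replicates 1 to 3, horizontal lines for group means and a dotted line at log2 4. Left of the grey line are the 4 genes that passed the test, at higher signal in GFP positive cells; right of it Zfp711, Zfp57 and Zfp280b, lower in GFP positive cells and not past it.

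On the lower side the 3 largest differences were those of Zfp711, Zfp57 and Zfp280b, and none passed. Zfp711, an X-linked gene whose human counterpart is a partner of the histone demethylase PHF8, measured 4.76, 5.23 and 4.35 in GFP positive cells and 5.92, 6.99 and 6.00 in GFP negative cells. Every GFP positive array lay below every GFP negative one. Its difference of −1.52 (SE 0.35, 95% interval −2.35 to −0.70, 2.88-fold) was the largest of all members in either direction, with a limma adjusted p of 0.0598. A second Zfp711 probe set read 5.87 on GFP negative replicate 2 and 2.31 to 2.44 on the other 5 arrays, so that only that array stood above background.

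Zfp57, a KRAB zinc finger protein that keeps DNA methylation at imprinted genes, read 5.39, 4.86 and 5.01 in GFP positive cells, against 5.65, 6.21 and 6.76 in GFP negative cells. The groups did not overlap, by the narrow gap between 5.39 and 5.65. The difference was −1.12 (SE 0.31, 95% interval −1.84 to −0.41, 2.18-fold), with a limma adjusted p of 0.0963, and it passed without GFP negative replicate 1 (−1.40, limma adjusted p = 0.0489).

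Zfp280b measured 5.32, 5.58 and 5.73 in GFP positive and 6.07, 6.52 and 6.58 in GFP negative cells. It too separated the groups (−0.85, SE 0.21, limma adjusted p = 0.0776). The remaining 2 of the 5 largest lower differences were less regular: Zfp646 (−0.71, limma adjusted p = 0.522) spanned 4.38 to 5.70 on GFP positive arrays and 5.43 to 6.84 on GFP negative arrays, and Zfp184 (−0.67, limma adjusted p = 0.28) owed much to a reading of 8.31 on GFP negative replicate 3, against 7.29 and 7.42 on the other GFP negative arrays.

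On the higher side, the 5 largest differences among members that did not pass were 0.79 to 0.96, and that of Zfp867 was larger than those of the called Zfp563 and Zfp438. Zfp867 read 7.34, 7.38 and 7.22 in GFP positive cells, against 6.14, 5.98 and 6.93 in GFP negative cells (0.96, SE 0.27, limma adjusted p = 0.104). Its groups were separate, and GFP negative replicate 3 stood nearest to the GFP positive arrays. Zfp449 read 6.62, 7.26 and 7.28 in GFP positive and 5.97, 6.26 and 6.28 in GFP negative cells (0.88, limma adjusted p = 0.0882). Zfp652 differed by 0.82 (limma adjusted p = 0.146) at its brightest probe set and by −0.26 and −0.20 at 2 others past the level rule, so its probe sets had opposite signs. Zfp217, whose human counterpart ZNF217 is amplified in breast cancer, overlapped between groups (0.83, limma adjusted p = 0.376). Zfp14 read 5.23, 5.46 and 5.09 in GFP positive cells, against 3.88, 3.59 and 5.93 in GFP negative cells. GFP negative replicate 3 was its highest array and the other GFP negative arrays its lowest, and without that replicate the difference was 1.52 in place of 0.79 (limma adjusted p = 0.00784 in place of 0.549).

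The members' differences were small as a whole. Their median was 0.06, beside 0.00 for all genes (0.0049 before rounding), and 153 were positive and 112 negative. The middle 50% lay between −0.15 and 0.26, beside −0.25 and 0.26 for all genes, and the 5% to 95% range was −0.51 to 0.71, beside −0.84 to 0.85. A difference of 2-fold or more was found in 3 members (1.13%, against 7.04% of all genes): Zfp119a upward, and Zfp711 and Zfp57 downward. Groups did not overlap, with GFP positive higher, for 27 members (10.2%, against 13.8% of all genes), and with GFP positive lower for 13 (4.91%, against 11.5%). The narrower spread was seen at each signal level. Among genes under log2 6 the 5% to 95% range was −0.66 to 0.75 for 76 members and −1.53 to 1.41 for 1479 genes. Between log2 6 and 8 it was −0.51 to 0.72 for 79 members and −1.06 to 1.03 for 2295 genes, and at log2 8 or more −0.44 to 0.52 for 110 members and −0.57 to 0.65 for 6757 genes. The differences between these ranges were not tested.

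A call that was missed does not show that a gene was alike in both groups. The 95% limma interval lay wholly within a 2-fold change either way for 172 members (64.9%), beside 62.7% of all genes, and for the other members a 2-fold change was within the interval. The median standard error was 0.25 for the members and 0.24 for all genes. The members' array signal was lower, with a median of 7.34, beside 8.93 for all genes tested. Signal also depends on the probes, so it gives no order of transcript amounts between genes.

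**Figure D2:**
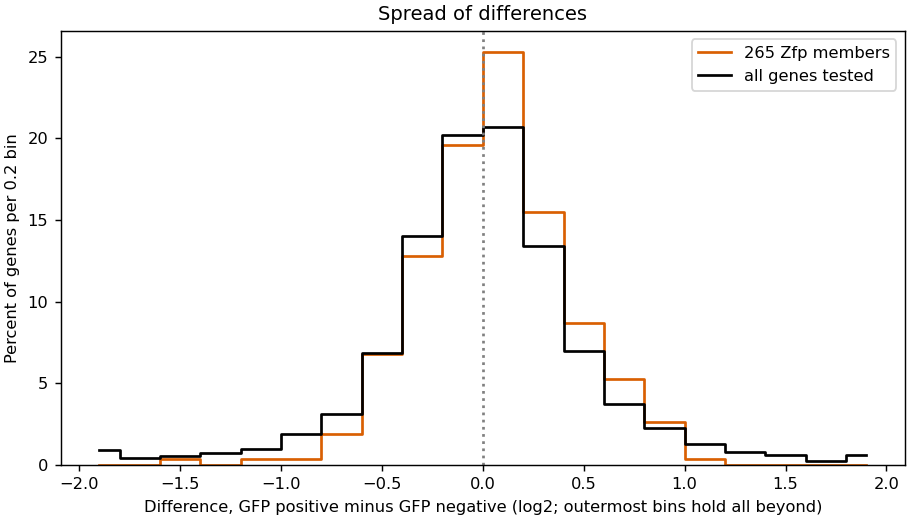
Percent of genes in each 0.2-wide bin of the difference between GFP positive and GFP negative cells (log2), for the 265 Zfp members (orange) and all 10531 genes tested (black); the outermost bins hold everything beyond. A smaller share of the members than of all genes lies beyond a 2-fold change (1 on this scale) either way, 1.13% against 7.04%, and a larger share lies between 0 and that change on the higher side.

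Of the members 248 read log2 4 or more on all 6 arrays, 14 on 4 or 5 and 3 on exactly 3, and 0 passed through the arrays of 1 group alone. The 3 members just inside the rule were Zfp691, Zfp784 and Zfp108, for which the level reached by 3 arrays was 4.07, 4.10 and 4.13. The 3 genes just outside were Zfp524, Zfp128 and Zfp119b, at 3.797, 3.73 and 3.69. The 71 genes that were not members were read near background and not tested. The brightest probe sets were those of Zfp36l1, Zfp664, Zfp263, Zfp24 and Zfp106, at means of 12.34 to 13.55 in each group. Among these 5 the largest difference was that of Zfp664 (0.15, limma adjusted p = 0.765).

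The median SD of a member was 0.22 over GFP positive and 0.36 over GFP negative arrays, beside 0.17 and 0.36 for all genes. Relative to each gene's mean over 6 arrays, GFP positive replicates 1, 2 and 3 had member medians of 0.01, 0.09 and 0.02, and GFP negative replicates had −0.13, 0.05 and 0.01. For 99 of the 265 members the array farthest from the gene's mean was GFP negative replicate 3, and for 4547 of all 10531 genes it was too. Leaving that array out gave 15 members higher and 4 lower (7.17% of the members, beside 11.8% of all genes). With any other array left out, 1 member or none passed.

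**Figure D3:**
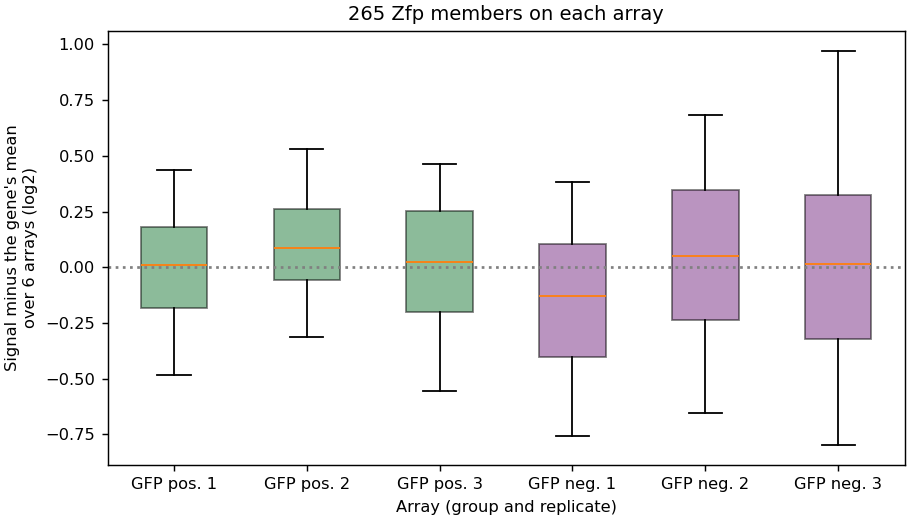
Signal of the 265 Zfp members on each array minus the gene's mean over 6 arrays (log2), GFP positive arrays (green) left of GFP negative ones (purple); boxes span the middle 50%, lines in them are medians and whiskers reach the 5% and 95% points. The medians lie between −0.13 and 0.09, and the whiskers are widest on GFP negative replicate 3.

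Across the whole series, Thrsp itself read 14.13 to 14.32 on GFP positive and 13.41 to 13.71 on GFP negative arrays at its brightest probe set. Across genes, pairs of GFP positive arrays correlated at 0.985 to 0.993, GFP negative pairs at 0.952 to 0.982 and mixed pairs at 0.935 to 0.972. The excess of 3′ over 5′ signal of the control transcripts spanned log2 values of 1.52 to 1.63 for GFP positive and of 1.51 to 2.49 for GFP negative arrays, and was highest on GFP negative replicate 2. With it as a covariate 0 members passed. Limma's unadjusted p was then under 0.05 for 15 members higher (5.66%, beside 7.54% of all genes) and 4 lower (1.51%, beside 5.35%). Stem cell and astrocyte markers were bright in both groups (mean signal of the 8 measured between 12.45 and 12.51 on GFP positive arrays, and between 11.66 and 11.99 on GFP negative arrays). Of the 8, 3 rose, Gfap, Aqp4 and Slc1a2, beside 2.35% of all genes. The list did not move as a whole: 6 markers were positive and 2 negative. The negative ones were Nes (−0.49, limma adjusted p = 0.364) and Fabp7 (−0.01, limma adjusted p = 0.983), neither of them called. Beside 2.11% of all genes, all 9 measured markers of dividing cells fell (median difference −1.76). Of these Plk1 passed the level rule through GFP negative arrays alone, so its direction was fixed by the rule, and the other 8 had a median of −1.75. The 9 had a mean signal between 6.24 and 6.98 on GFP positive arrays, and between 8.12 and 8.90 on GFP negative arrays. Of 6 markers each, 1 was measured for microglia (Csf1r), 1 for endothelium (Flt1), 1 for oligodendrocytes (Cnp) and 2 for neuroblasts and neurons (Neurod1 and Map2), and none of these passed. The neuroblast markers Dcx and Tubb3 lay below the level rule, at means of 2.43 and 3.36. The part of dividing cells in the Zfp results was not tested.

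A list of 15 genes held mainly proteins that act on RNA, ribosomes, centrosomes or the spindle, and also the SUMO ligase Zfp451. Of the 15, 13 were measured. None passed the limma test in either direction, beside 2.35% of all genes higher and 2.11% lower, and the median difference was −0.06. At an unadjusted p under 0.05 in limma there was 1 in each direction, beside 9.92% of all genes higher and 8.28% lower. The higher one was Zfp36l2, a protein that binds AU-rich messenger RNAs and speeds their decay. It read 12.31, 12.08 and 12.01 in GFP positive and 11.80, 11.71 and 11.52 in GFP negative cells (0.46, SE 0.18, limma adjusted p = 0.227). All 3 GFP positive arrays lay above the GFP negative ones. Its relative Zfp36 showed the same order, with 11.08, 11.18 and 11.04 in GFP positive and 10.80, 10.68 and 10.84 in GFP negative cells (0.32, limma adjusted p = 0.358). The third relative, Zfp36l1, overlapped between groups and differed by −0.02 (95% interval −0.47 to 0.44), and another Zfp36l1 probe set differed by 0.53.

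The lower one was Zfp365, a centrosomal protein, at 10.44, 10.69 and 10.87 in GFP positive and 11.22, 11.31 and 10.98 in GFP negative cells (−0.50, SE 0.19, limma adjusted p = 0.224). The groups were separate by the gap between 10.87 and 10.98. Zfp207, which binds spindle microtubules and the checkpoint protein Bub3, read 10.53, 10.51 and 10.65 in GFP positive cells, against 11.34, 11.65 and 10.35 in GFP negative cells (−0.55, limma adjusted p = 0.45). GFP negative replicate 3 lay below every other array. Without it the difference was −0.93 (limma adjusted p = 0.0201). Of the 5 Zfp207 probe sets past the level rule, 4 were negative and 1 was at 0.02 (10.55, 10.28 and 10.29 in GFP positive and 10.49, 10.11 and 10.45 in GFP negative cells).

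The others of this list lay closer to 0 or varied more. Zfp830 differed by −0.51, the ribosome quality factor Zfp598 by −0.45, the RNA-binding protein Zfp385a by −0.34 and Zfp593 by −0.28. The 60S assembly factor Zfp622 (−0.06), the SUMO ligase Zfp451 (0.02), the double-stranded RNA-binding protein Zfp346 (0.10) and the RNA-binding protein Zfp106 (0.14) were within 0.15 of 0 at the probe sets used. Over these 8 genes the limma adjusted p ran from 0.392 to 0.985 at the probe sets used. Other probe sets past the level rule differed by 0.27, −0.07 and 1.06 for Zfp622 and by −0.29 and −0.69 for Zfp106. For Zfp451 they differed by −0.23, −0.28 and −0.04, for Zfp830 by −0.77 and 0.01 and for Zfp593 by −0.84. None of them had a limma adjusted p under 0.05 over all probe sets.

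Regulators known from neural development or stem cells made up a list of 24 symbols, with Zfp24 also under its older symbol Zfp191. Of the 24, 17 were measured. None passed the limma test, while 2.35% of all genes passed it as higher and 2.11% as lower. Before adjustment, limma gave p under 0.05 to 9.92% of all genes on the higher side and 8.28% on the lower. In this list that held for 1 higher and 3 lower. Zfp711 and Zfp57, described above, were 2 of the 3. The third was Zfp608, at 8.41, 7.56 and 7.86 in GFP positive and 8.75, 8.64 and 8.37 in GFP negative cells (−0.65, SE 0.25, limma adjusted p = 0.233). Its groups overlapped by a hair, 8.41 against 8.37, and another Zfp608 probe set differed by 0.09. The higher one was Zfp503, a factor of striatal and limb development also called Nolz1. It read 7.79, 8.42 and 8.67 in GFP positive and 7.61, 7.41 and 7.75 in GFP negative cells (0.70, SE 0.26, limma adjusted p = 0.199). The groups were separate, and a second probe set had the same sign (0.55).

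Several of these regulators were bright and showed no call at the probe set used. Zfp521, known to promote neural fate of embryonic stem cells, read 9.77, 9.92 and 9.91 in GFP positive and 9.32, 9.49 and 9.73 in GFP negative cells (0.35, limma adjusted p = 0.37), with groups that did not overlap. Zfp462, a chromatin regulator of early neural development, read 11.39, 11.87 and 12.11 in GFP positive and 12.31, 12.45 and 11.39 in GFP negative cells, an overlap made by GFP negative replicate 3 (−0.26, limma adjusted p = 0.764). Its other probe sets past the level rule differed by −0.0033 and by −1.42. The last read 3.24, 2.80 and 3.12 in GFP positive cells, against 4.04, 4.80 and 4.58 in GFP negative cells, with a limma adjusted p of 0.0423 over all probe sets. It passed the level rule through GFP negative arrays alone, so its direction was fixed by the rule. Zfp24, required for myelination by oligodendrocytes, differed by 0.07 (95% interval −0.47 to 0.62), and Zfp703, a relative of Zfp503, by −0.15 (−0.59 to 0.30). Zfp335, which in mice is needed for the proliferation of neural progenitors, read 5.18, 5.52 and 4.91 in GFP positive cells, against 4.15, 5.01 and 6.72 in GFP negative cells. Its GFP negative arrays spanned the GFP positive ones on both sides, and its interval of −1.48 to 1.30 excludes little. The remaining members of the list, Zfp148 (0.37), Zfp292 (0.15), the Sox9 partner Zfp219 (0.05), the neurotrophin receptor partners Zfp369 (0.01) and Zfp110 (−0.17), Zfp281 (−0.13), the G9a partner Zfp644 (−0.20) and the cerebellar regulator Zfp423 (−0.26), had limma adjusted p of 0.665 to 0.99. Other probe sets past the level rule differed by −0.13, −0.54, −0.44 and −1.28 for Zfp292, the last through GFP negative arrays alone. For Zfp644 they differed by −0.28, −1.27 and −0.14, and for Zfp281 by −0.46. Those of Zfp148 and Zfp110 had both signs. None of these other probe sets had a limma adjusted p under 0.05 over all probe sets.

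**Figure D4:**
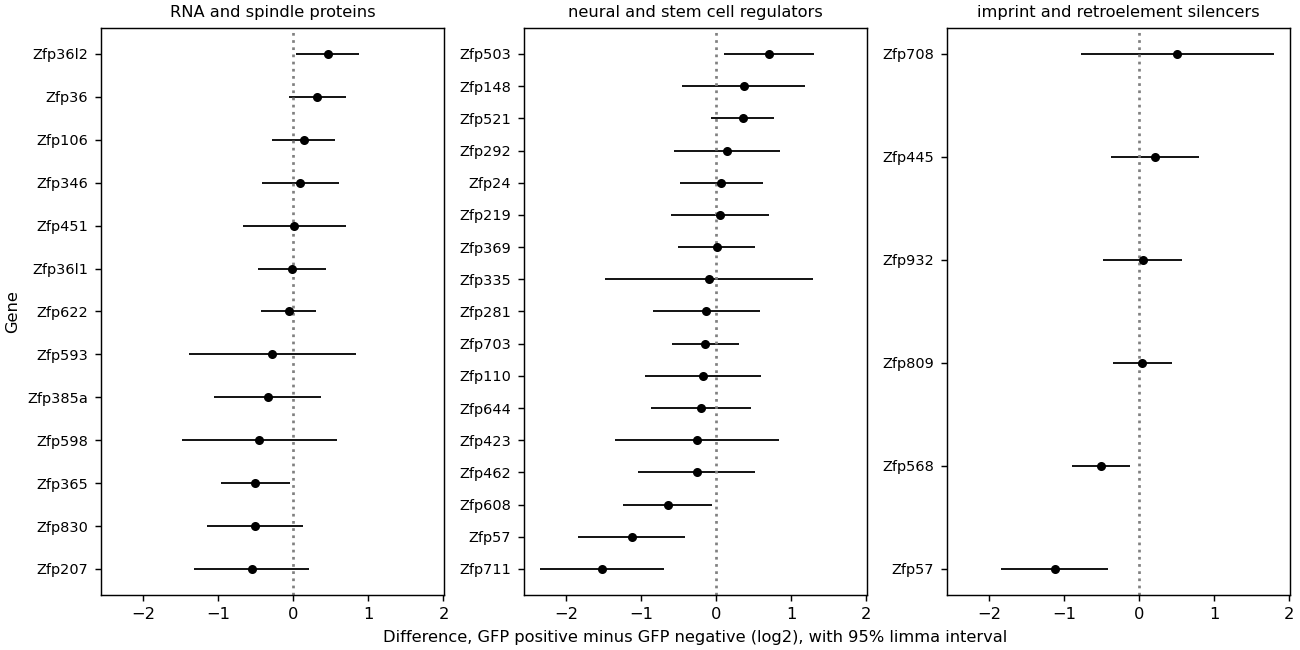
Difference between GFP positive and GFP negative cells (log2, points) with its 95% limma interval (lines) for the measured members of the lists of RNA and spindle proteins, neural and stem cell regulators, and imprint and retroelement silencers. No member of the lists passed the test; Zfp711 at −1.52 and Zfp57 at −1.12, which stands on 2 lists, are the lowest, and Zfp503 at 0.70 is the highest.

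Silencers of imprinted genes and retroelements made up a list of 7, of which 6 were measured and none passed, beside 4.46% of all genes. Zfp57 was lower by 1.12 on the log2 scale without passing, as given above, while Zfp445, the other KRAB zinc finger protein known to keep imprints, differed by 0.21 (95% interval −0.37 to 0.79). Other Zfp445 probe sets past the level rule differed by −0.34 and 0.35, so its probe sets had both signs. Zfp568, which represses a placental Igf2 transcript in the mouse embryo, read 7.41, 7.19 and 7.26 in GFP positive and 7.74, 7.86 and 7.78 in GFP negative cells. Every GFP positive array lay below the GFP negative ones (−0.51, SE 0.16, 95% interval −0.89 to −0.13, limma adjusted p = 0.148). Zfp809, which silences murine leukaemia virus, differed by 0.045 (95% interval −0.35 to 0.44), Zfp932 by 0.05 (−0.48 to 0.57) and Zfp708, near background in part of the arrays, by 0.51 (−0.78 to 1.80).

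Among 23 symbols of genes through which KRAB proteins silence chromatin, with Tasor also under its older symbol Fam208a, 17 were measured. In limma 1 fell and 0 rose, beside 2.11% and 2.35% of all genes. At an unadjusted p under 0.05 in limma there were 3 lower and 0 higher, beside 8.28% and 9.92% of all genes. Uhrf1, which guides the maintenance DNA methyltransferase to replicated DNA, was the one that fell, at 9.54, 10.04 and 9.26 in GFP positive cells, against 11.28, 11.15 and 11.05 in GFP negative cells. The groups were more than a log2 unit apart (−1.55, SE 0.23, 2.93-fold, limma adjusted p = 0.0172). Leaving out GFP positive replicate 1, GFP positive replicate 3 or GFP negative replicate 2 ended its call, as did the replicate block (limma adjusted p = 0.0643) and the 3′ to 5′ covariate (limma adjusted p = 0.0927), and the highest limma adjusted p was 0.0946. The markers of dividing cells given above fell in the same comparison, and their part in this difference was not tested. Dnmt1, the maintenance methyltransferase itself, read 11.37, 11.27 and 11.33 in GFP positive and 11.59, 12.17 and 12.47 in GFP negative cells (−0.75, limma adjusted p = 0.154). Uhrf1, Dnmt1 and Hdac2 (−0.61, limma adjusted p = 0.228) were the 3 lower at an unadjusted limma p under 0.05. Trim28, the corepressor bound by KRAB domains, read 11.06, 10.89 and 10.69 in GFP positive and 10.93, 11.46 and 12.34 in GFP negative cells. It overlapped between the groups (−0.70, SE 0.35, limma adjusted p = 0.358). Setdb1 was tight in both groups, with 8.33 to 8.34 for GFP positive cells and 8.50 to 8.54 for GFP negative cells, a difference of −0.18 (limma adjusted p = 0.634). The heterochromatin proteins Cbx1 and Cbx5 differed by 0.13 and 0.05, and Cbx3 lay below the level rule, at a mean of 1.86.

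Zfp genes lie beside each other in the genome. In the RefSeq gene order of GRCm38.p6, 132 members stand directly beside another protein-coding Zfp gene, and chromosomes 7 and 17 hold 61 and 39 members. Of the members with such a neighbour 78 were positive and 54 negative (median difference 0.07), and of the 133 without one 75 were positive and 58 negative (median 0.05). Of the 98 members in runs of 3 or more Zfp genes 3 rose (3.06%), and of the 133 with no Zfp neighbour 1 rose (0.752%), beside 2.35% of all genes. There were 10 runs with at least 4 measured members, 61 members in all, of which 43 were positive and 18 negative. In the 18 runs with fewer measured members, 17 of 37 members were positive and 20 negative, so that over all runs of 3 or more genes 60 of 98 members were positive (61.2%, beside 57.7% of all members and 50.5% of all genes). In 6 of the 10 runs more members were positive than negative, and in the other 4 as many were positive as negative.

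The run with the most measured members, from Zfp84 to Zfp146 on chromosome 7, had 12, 8 positive and 4 negative, with differences from −0.51 (Zfp568) to 0.79 (Zfp14) and a median of 0.44. None of them passed the test, and genes of the run differed in sign: Zfp383 (0.76) and Zfp82 (0.57) were positive and Zfp568 and Zfp566 (−0.41) negative. Relative to each gene's mean, GFP positive arrays had run medians of 0.19, 0.13 and 0.04, and GFP negative arrays of −0.17, −0.14 and 0.11, so GFP negative replicate 3 lay among the GFP positive arrays. A shorter run on the same chromosome, from Zfp607b to Zfp850, had 4 measured members, Zfp607b (0.59), Zfp60 (0.27), Zfp59 (0.64) and Zfp974 (0.43), all positive and none past the test. The runs from Zfp180 to Zfp94, which holds Zfp235, and from Zfp455 to Zfp273 each had 7 positive and 1 negative member, with medians of 0.20 and 0.21. Neighbouring Zfp genes can be near copies of each other, and array probes may not tell such copies apart, so neighbours are not independent measurements.

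**Figure D5:**
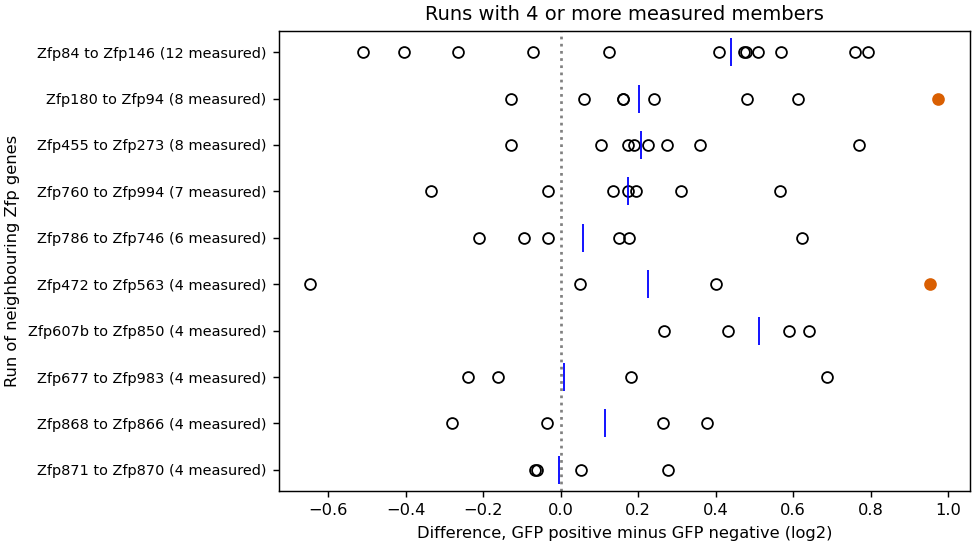
Differences between GFP positive and GFP negative cells (log2) of measured members in the 10 runs of neighbouring Zfp genes with at least 4 measured members; circles are genes, filled orange where the gene passed the test, and blue ticks are medians. The 4 members of the run from Zfp607b to Zfp850 all lie right of 0, and the filled points are Zfp235 and Zfp563.

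Different probe sets of 1 member often disagreed in sign. Of 85 members with several probe sets past the level rule, all had 1 sign in 42 and both signs occurred in 43. This was not counted over all genes, so it is not shown to be particular to the Zfp genes. The median absolute difference of a member was 0.23, beside a median standard error of 0.25. Of the chosen probe sets 36 carry a suffix (_s_at, _x_at or _a_at) that marks probes shared among transcripts or genes, none of them that of a called member.

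Promoters were found in the RefSeq table for 215 members. They held a median of 16 CG pairs in 300 bases, beside 13 for 17491 protein-coding genes. The 215 members had all passed the level rule, while the 17491 genes were taken whether or not they did. The 2 sets therefore differ in more than the symbol, and which difference the shares below follow was not tested. The E2F letters TTTCCCGC or TTTGGCGC, read on both strands, were in 11 member promoters (5.12%, beside 2.09% of all), GCATGCGC, a form of the NRF1 site, in 14 (6.51%, beside 3.60%) and CCGGAAG, an ETS site, in 43 of the 215, beside 11.9% of all. CCAAT was in 102 (47.4%, beside 39.0%), the GC box GGGCGG in 107 (49.8%, beside 46.3%) and the cell cycle homology letters TTTGAA in 33 (15.3%, beside 16.5%). The median difference of members with and without the letters was 0.05 and 0.06 for E2F, 0.07 and 0.05 for CCAAT, 0.08 and 0.05 for ETS, 0.03 and 0.10 for the GC box, 0.02 and 0.06 for NRF1 and 0.03 and 0.06 for the TTTGAA letters, and none of these was tested.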

How the data were processed

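Total RNA of GFP positive and GFP negative mouse neural stem cells, 3 arrays per group, was hybridised to Affymetrix mouse arrays. Per the submitters' processing notes, GCRMA gave the deposited log2 values; it subtracts a background estimated from probe sequence, which pulls dim probe sets to a floor, and normalizes arrays to each other, so a shift of all genes could be hidden. The deposited values are not identically distributed: 47.4% to 48.2% of probe sets read log2 4 or more. Of 45101 probe sets, 34945 named exactly 1 gene in the platform annotation; all 265 members matched RefSeq (GRCm38.p6) by gene identifier, with 0 changed symbols. The array file names no genome build. The fit used limma (version 3.58.1, R version 4.3.3; lmFit, eBayes, no covariate) over 10531 genes, 1 probe set per gene, with Benjamini-Hochberg adjustment; it was tested on simulated data. Genes named were those past the threshold, the 5 largest other differences in each direction, the 5 brightest, those at the edge of the level rule, all measured members of the 3 role lists and corepressor genes past the threshold; other names complete a description of neighbours and were chosen after their values were seen. The members, lists and rules were chosen with earlier results of these data known. With 3 arrays per group their number limits the precision, and p-values measure the spread between these arrays. Deviations from the group mean correlated across genes at −0.50 to 0.05 between the same replicate numbers, and at up to 0.44 between unlike ones. Within a group such deviations sum to 0, so this check cannot tell whether arrays of the same number shared a preparation. The numbers were not used to pair arrays in the main fit, and the replicate block was run as an alternative. A description of zinc finger and KRAB matches in the proteins was not made, as no protein sequences were used here.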

Additional observations from a re-analysis of the deposited data

How the results depend on the processing

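Median differences of the members stayed positive under all 15 alternatives, 0.03 to 0.13. The median of all genes moved with the setting as well. Without GFP negative replicate 3 it was 0.0491, beside 0.0494 for the members, and with array weights 0.0544, beside 0.1083. Without GFP negative replicate 1 it was −0.0378, beside 0.0298 for the members. These medians were not tested against each other. The counts of all genes called higher and lower were 1051 and 603 with array weights (0.152 for GFP negative replicate 3, and 8.35 for GFP positive replicate 2), 19 and 8 with the replicate block, 9 and 0 with the 3′ to 5′ covariate (794 and 563 at an unadjusted p under 0.05 in limma), and 101 lower with no filter on low values. With 1 array left out they ran from 1 to 801 higher and from 0 to 443 lower. The members called higher numbered 2 with no filter, 2 with a common median and 2 without probe sets of shared suffix. With trend and robust settings 1 was called higher. At an unadjusted p under 0.05 in limma, in that order, 8.93%, 8.3%, 8.91% and 4.15% of the members were higher. The shares of all genes were 7.39%, 9.95%, 9.99% and 9.92%. With array weights 25 members were called higher and 8 lower. There limma's unadjusted p was under 0.05, on the higher and lower side, for 18.5% and 8.68% of the members. Among all genes these shares were 19.1% and 12.5%. The members called numbered 0 with the replicate block (12 and 5 in limma at an unadjusted p under 0.05, or 4.53% and 1.89%, beside 7.02% and 5.93% of all genes) and 0 with the 3′ to 5′ covariate (5.66% and 1.51% at an unadjusted p under 0.05, beside 7.54% and 5.35% of all genes), and 0 to 15 higher and 0 to 4 lower with 1 array left out. Quantile normalization kept all 4 calls, and a filter at log2 6 kept Zfp235, Zfp438 and Zfp563. The cause of these changes was not tested.

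No called member changed sign under any alternative run. Among uncalled members near 0, the sign changed with array weights for Zfp24 (−0.0021), Zfp784 (0.13), Zfp385a (0.0214), Zfp932 (−0.053), Zfp593 (0.19), Zfp335 (0.62), Zfp369 (−0.0674) and Zfp451 (−0.12). It changed with the 3′ to 5′ covariate for Zfp263 (0.0335), Zfp784 (0.10), Zfp423 (0.41), Zfp110 (0.0089) and Zfp335 (0.0406), and without probe sets of shared suffix for Zfp292 (−0.13), Zfp110 (0.0492) and Zfp622 (0.27). With 1 array left out the ranges that crossed 0 were −0.15 to 0.0791 for Zfp36l1, −0.0033 to 0.25 for Zfp664, −0.24 to 0.0232 for Zfp263, −0.13 to 0.19 for Zfp24, −0.23 to 0.0776 for Zfp691, −0.44 to 0.0424 for Zfp784, −0.0785 to 0.27 for Zfp346, −0.74 to 0.23 for Zfp423, −0.11 to 0.37 for Zfp292, −0.40 to 0.0275 for Zfp644, −0.15 to 0.36 for Zfp219, −0.16 to 0.18 for Zfp932, −0.48 to 0.0464 for Zfp281, −0.45 to 0.0845 for Zfp110, −0.0196 to 0.10 for Zfp809, −0.68 to 0.27 for Zfp593, −0.66 to 0.62 for Zfp335, −0.13 to 0.21 for Zfp369 and −0.28 to 0.24 for Zfp451. None of these differences was called.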

Other observations

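Without GFP negative replicate 3, the 15 members called higher were the 4 named before and Zfp14, Zfp52, Zfp59, Zfp395, Zfp612, Zfp661, Zfp688, Zfp758, Zfp777, Zfp867 and Zfp874b, and the 4 called lower were Zfp711, Zfp207, Zfp101 and Zfp654. These names were chosen after their values were seen, and the fit has 3 arrays against 2. Zfp59 read 5.16, 5.16 and 5.22 in GFP positive cells, against 4.25, 3.84 and 5.52 in GFP negative cells, and Zfp688 read 7.13, 6.85 and 6.58 in GFP positive cells, against 5.71, 5.92 and 7.31 in GFP negative cells. In both genes GFP negative replicate 3 was the highest of all 6 arrays. Zfp101 ran the other way, at 6.68, 7.18 and 6.90 in GFP positive cells, against 7.83, 7.78 and 6.41 in GFP negative cells, where replicate 3 was the lowest array.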
